A study of Mus musculus with 8 samples.

Results

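The plasminogen activation genes described here are the tissue-type and urokinase-type plasminogen activators Plat and Plau, the urokinase receptor Plaur, the serpins Serpine2 and Serpinf1, and the plasminogen co-receptor pair S100a10 and Anxa2. They were chosen by gene symbol, as activators, receptors and serpins around the complexes that LRP1 clears, and all 7 were found among the 22520 protein-coding genes of the deposited table. Liver ECs of C57BL/6 mice at postnatal day 14 were profiled by mRNA-seq in 4 WT and 4 LRP1 eKO libraries. By the study's methods, both genotypes carry floxed Lrp1 alleles, and the LRP1 eKO mice also carry CreER under the Cdh5 promoter, which is active in endothelium, so an effect of CreER cannot be told apart from that of Lrp1 loss. The cells were taken with beads against PECAM-1. The labels do not say whether a library came from 1 mouse or several, and the p-values measure the spread between these libraries, which may be technical.

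Plasmin dissolves fibrin and cuts matrix proteins and growth factor precursors. It is made from plasminogen by tPA, the product of Plat, or by uPA, the product of Plau. uPA works while bound to its receptor uPAR, the product of Plaur, and serpins stop both activators by forming covalent complexes with them. LRP1 is an endocytic receptor that takes up these complexes, and uPAR can be carried in with them. At the endothelial surface, annexin A2 and S100A10 form a tetramer that binds plasminogen and tPA. Pigment epithelium-derived factor, the product of Serpinf1, has the serpin fold but does not inhibit proteases and is known for limiting angiogenesis.

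Each value is a signal that the authors quantile-normalized across the libraries, without a unit stated with the table, so a higher signal of one gene than of another is not read as a higher transcript level. LRP1 eKO and WT libraries were compared on the log2(signal + 1) scale with limma over 11391 genes. Below, "adjusted p" is its Benjamini-Hochberg adjusted p over all of these, unless another set is named. Fold changes on this scale are understated for genes of low signal. The targeted gene Lrp1 had signals between 56.2 and 85.1 in WT and between 2.16 and 6.01 in LRP1 eKO libraries, a log2 fold change of -3.66 (adjusted p = 2.8e-06). Within a group, WT replicate 4 was farthest from the median for 61.7% of genes and LRP1 eKO replicate 2 for 37.2%.

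In LRP1 eKO libraries both activators were lower, and the urokinase receptor and both subunits of the plasminogen co-receptor were higher. All 7 genes passed the filter on low signals. At an adjusted p below 0.05, 3 of them rose, 2 fell and 2, the serpins, did not pass. This threshold was passed by 41.2% of all genes tested, 19% as higher and 22.2% as lower, and nothing particular to the 7 genes is read from their count. None of the 7 reached a 2-fold change, against 1.66% of all genes tested (0.869% higher, 0.79% lower), and their log2 fold changes were between 0.046 and 0.53 in size. The groups did not overlap for 5 of the 7, against 42.6% of all genes tested (20% higher, 22.5% lower). The median log2 fold change of the 7 genes was 0.22, and that of all genes tested was -0.0095.

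**Figure D1:**
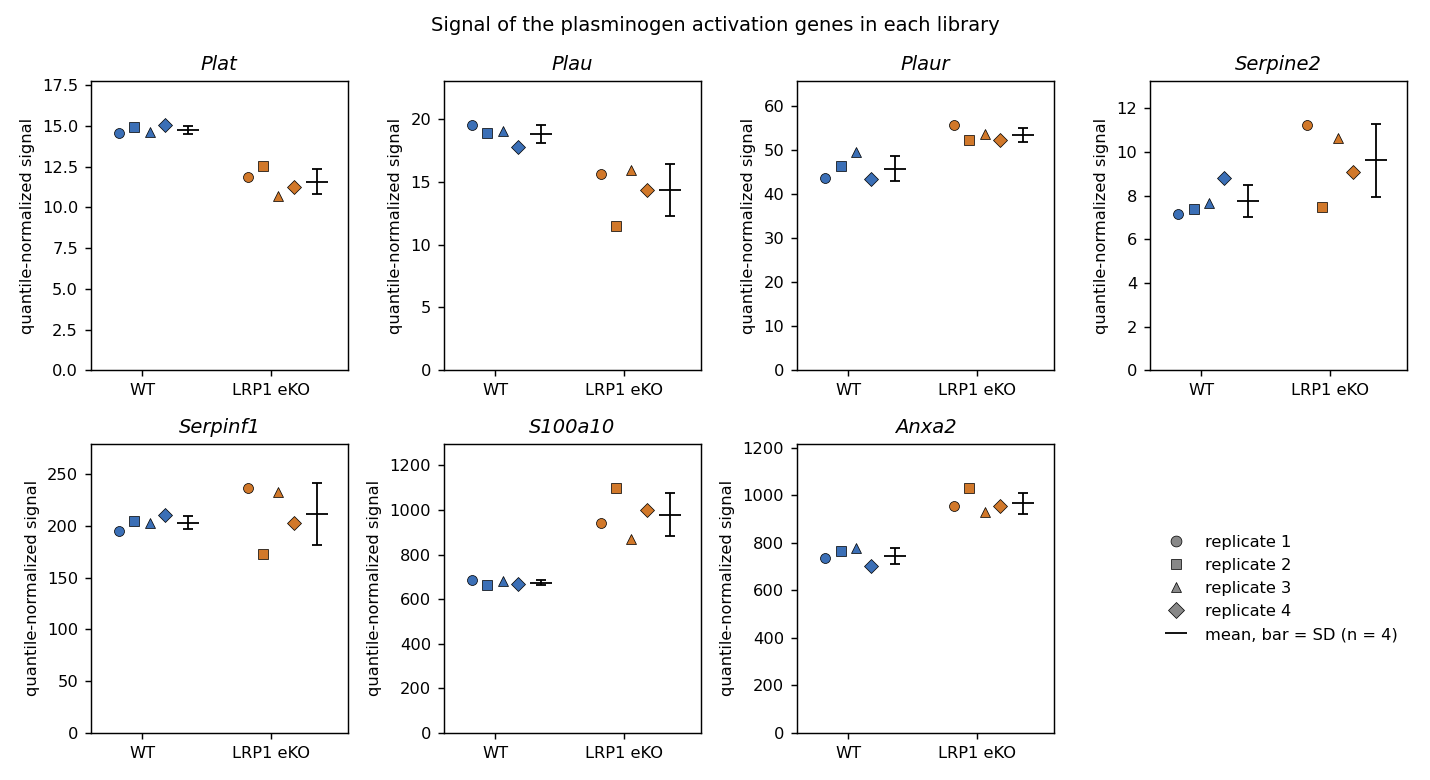
Quantile-normalized signal (y axes, from 0) of each of the 7 genes in the 4 WT and 4 LRP1 eKO libraries, with the mean and SD of each group beside the points. Plat and Plau sit lower and Plaur, S100a10 and Anxa2 higher in every LRP1 eKO library than in any WT library, while the points of Serpine2 and Serpinf1 overlap.

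Plat encodes tPA, the activator that endothelial cells release into blood and that works best on fibrin. The gene lies at chr8:22757727-22782844 (GRCm38, plus strand). In order of replicate, the WT libraries had 14.6, 14.9, 14.6 and 15.1 and the LRP1 eKO libraries 11.9, 12.5, 10.7 and 11.2. Every LRP1 eKO library lay below every WT library, and the WT libraries differed little from each other. The mean fell from 14.8 ± 0.246 to 11.6 ± 0.795 (SD, n = 4), to 78.4% of WT, and limma gave a log2 fold change of -0.33 (standard error 0.055, 95% interval -0.45 to -0.21, adjusted p = 0.0013). The exact two-sided permutation test gave p = 0.029, the smallest that 4 libraries against 4 allow.

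Plau encodes uPA, the activator used for proteolysis around moving cells. It lies at chr14:20836660-20843385 (plus strand). In WT replicates 1 to 4 its signals were 19.5, 18.9, 19.0 and 17.8, and in LRP1 eKO replicates 1 to 4 they were 15.7, 11.5, 15.9 and 14.3. The groups did not overlap, and LRP1 eKO replicate 2 was the lowest of all libraries. From 18.8 ± 0.733 the mean fell to 14.3 ± 2.05 (SD, n = 4), or 76.4% of WT, with a fitted log2 change of -0.38 (standard error 0.091, 95% interval -0.58 to -0.17, adjusted p = 0.0092; exact permutation p = 0.029). A difference between the changes of both activators was not detected. Within a library, log2(signal + 1) of Plat minus that of Plau moved by 0.048 between the genotypes (95% interval -0.31 to 0.40, exact permutation p = 0.86, adjusted p = 0.86 over 6 pairs), and the sign of this difference turned when LRP1 eKO replicate 2 was left out (-0.084).

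Plaur encodes uPAR, a receptor held to the membrane by a lipid anchor. The gene is at chr7:24462484-24475968 (plus strand). Its signals in WT replicates 1 to 4 were 43.6, 46.3, 49.5 and 43.4. In LRP1 eKO replicates 1 to 4 they were 55.7, 52.2, 53.6 and 52.3, all above the highest WT library. The mean rose from 45.7 ± 2.84 to 53.4 ± 1.61 (SD, n = 4), to 117.0% of WT. The log2 fold change of 0.22 (standard error 0.051, 95% interval 0.11 to 0.34, adjusted p = 0.0072; exact permutation p = 0.029) was the smallest among the 5 genes that passed. The ligand and its receptor thus moved in opposite directions. Within a library, log2(signal + 1) of Plau minus that of Plaur went from -1.24 ± 0.088 to -1.84 ± 0.178 (SD, n = 4), a difference of -0.60 (95% interval -0.84 to -0.36). As neither gene overlapped between the groups, this separation follows from the single-gene values and is given with no test.

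S100a10 encodes p11, the S100 protein that carries the lysine end to which plasminogen binds in the annexin complex. It lies at chr3:93555080-93564643 (plus strand). Its WT signals were 684.7, 662.8, 681.7 and 666.0 in replicates 1 to 4, and its LRP1 eKO signals were 941.7, 1099, 870.9 and 998.1. The lowest LRP1 eKO library was well above the highest WT library. The mean rose from 674 ± 11.01 to 977 ± 96.4 (SD, n = 4), to 145.1% of WT, the largest change of the 7 genes. Its fitted log2 change was 0.53 (standard error 0.066, 95% interval 0.38 to 0.68, adjusted p = 2.3e-04; exact permutation p = 0.029), above that of 95.6% of all genes tested.

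Anxa2 encodes annexin A2, which binds membrane phospholipid through calcium and protects p11 from degradation. The gene spans chr9:69453620-69491795 (plus strand). Its signals were 735.0, 766.6, 778.9 and 703.3 in WT replicates 1 to 4. They were 954.0, 1032, 928.9 and 954.0 in LRP1 eKO replicates 1 to 4, again with no overlap. The mean rose from 746 ± 33.9 to 967 ± 44.7 (SD, n = 4), to 129.7% of WT, and its log2 fold change was 0.37 (standard error 0.050, 95% interval 0.26 to 0.49, adjusted p = 3.7e-04; exact permutation p = 0.029). An exon of Anxa2 overlaps the antisense gene Gm16144, and reads of both cannot be told apart without strand, which the sources used here do not state. Both subunits were highest in LRP1 eKO replicate 2. S100a10 rose more than Anxa2 in these values, and the within-library difference of Anxa2 minus S100a10 went from 0.15 ± 0.065 to -0.011 ± 0.084 (SD, n = 4). That difference of -0.16 (95% interval -0.29 to -0.027) did not pass the exact permutation test (p = 0.057, adjusted p = 0.069 over 6 pairs), and 3 of 4 LRP1 eKO libraries lay below the WT range.

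Serpine2 encodes protease nexin-1, a cell-surface inhibitor of thrombin, uPA and tPA whose complexes LRP1 takes up. It is at chr1:79794197-79861180 (minus strand). By replicate, the WT signals were 7.14, 7.37, 7.68 and 8.79, and those of LRP1 eKO libraries were 11.2, 7.49, 10.6 and 9.08. LRP1 eKO replicate 2 lay within the WT range, and the other LRP1 eKO libraries lay above it. The means were 7.74 ± 0.731 and 9.61 ± 1.68 (SD, n = 4), which gave a fitted log2 change of 0.27 (standard error 0.11, 95% interval 0.018 to 0.52) that did not pass (adjusted p = 0.080; exact permutation p = 0.086). Without LRP1 eKO replicate 2 it was 0.37 and passed (adjusted p = 0.011).

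Serpinf1 lies at chr11:75409769-75422701 (minus strand). Its signal by replicate was 194.8, 204.3, 202.6 and 210.2 in WT and 236.7, 172.5, 232.6 and 202.9 in LRP1 eKO mice. LRP1 eKO libraries lay above, within and below the WT range. The means were 203 ± 6.36 and 211 ± 29.9 (SD, n = 4), and the log2 fold change was 0.046 (standard error 0.091, 95% interval -0.16 to 0.25, adjusted p = 0.71; exact permutation p = 0.77). Without LRP1 eKO replicate 1 or 3 its sign turned (-0.013 and -0.0042). Both serpins had their lowest LRP1 eKO value in replicate 2.

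The activators were set against Serpine2 within each library, with the values of the single genes already known. Plat and Plau alone did not overlap between the groups, and Serpine2 alone did not pass. The p-values of these differences are therefore not read as a change in the balance of inhibitor and activator. Log2(signal + 1) of Plau minus that of Serpine2 was 1.33, 1.25, 1.21 and 0.94 in WT replicates 1 to 4 and 0.45, 0.55, 0.54 and 0.61 in LRP1 eKO replicates 1 to 4. The LRP1 eKO libraries were all lower and close to each other, although LRP1 eKO replicate 2 was low for both genes. The difference between the genotypes was -0.64 (95% interval -0.87 to -0.42, exact permutation p = 0.029, adjusted p = 0.043 over 6 pairs). Plat minus Serpine2 went from 0.86 ± 0.103 to 0.26 ± 0.299 (SD, n = 4), a difference of -0.60 (95% interval -0.98 to -0.21, exact permutation p = 0.029, adjusted p = 0.043 over 6 pairs). Here LRP1 eKO replicate 2, at 0.67, came close to the lowest WT value of 0.71. Serpine2 minus Serpinf1 rose by 0.22 (95% interval 0.12 to 0.33, exact permutation p = 0.029, adjusted p = 0.043 over 6 pairs), and all 4 LRP1 eKO libraries lay above the WT range. These 6 pairs share genes, and 0.043 is the value that the smallest possible p took for 4 of them, Plau minus Plaur included. As the separation of Plau minus Plaur follows from its single-gene values, counting it in the adjustment made this value lower for the others.

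**Figure D2:**
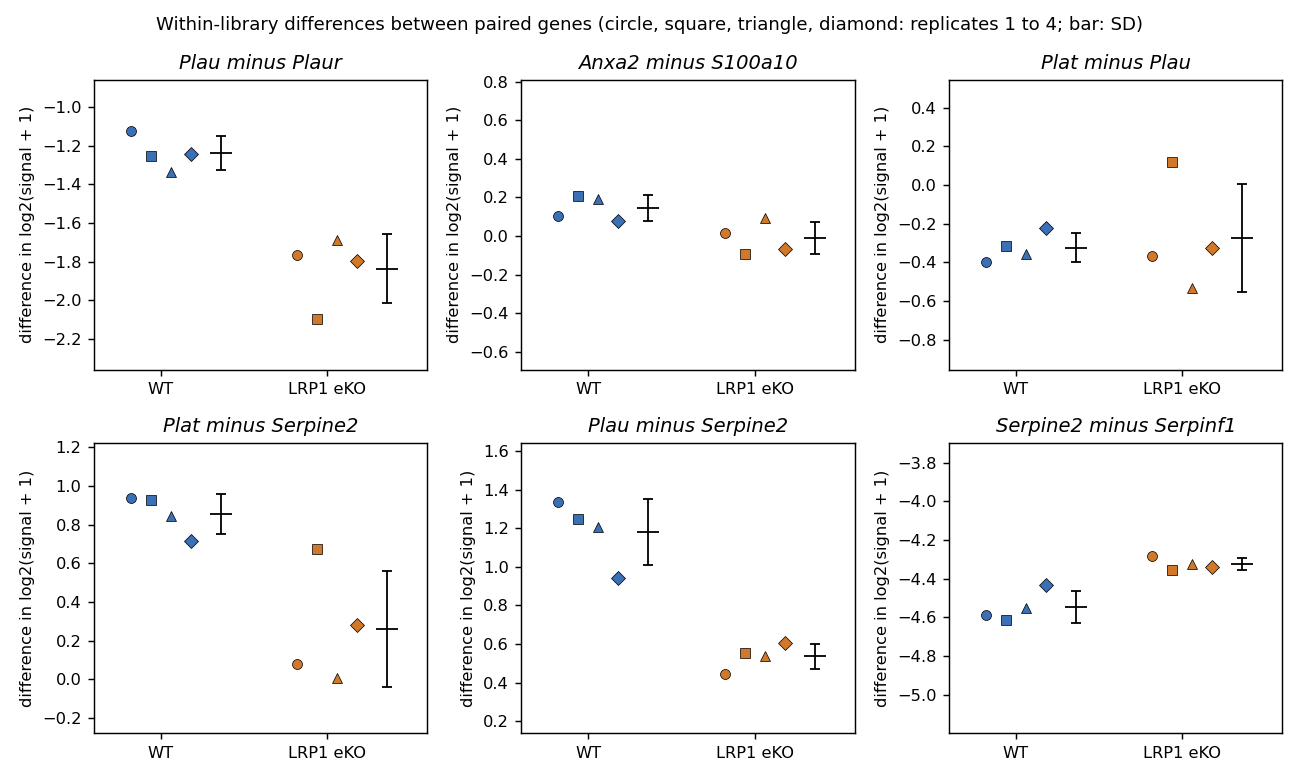
Difference in log2(signal + 1) between the genes of 6 pairs (y axes, each spanning the same height) in every WT (blue) and LRP1 eKO (orange) library, with the mean and SD of each group. Plau minus Plaur, Plat minus Serpine2 and Plau minus Serpine2 were lower and Serpine2 minus Serpinf1 was higher in all 4 LRP1 eKO libraries, and the points of Anxa2 minus S100a10 and Plat minus Plau overlap.

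Across the 8 libraries the members fell into opposed sets, as a description of 8 points that share the genotype difference. Pearson's r of log2(signal + 1) was 0.97 between S100a10 and Anxa2, 0.90 between Plaur and Anxa2, and -0.94 between Plau and S100a10. After the mean of each genotype was removed, r was 0.95 between Serpine2 and Serpinf1, 0.88 between Plau and Serpinf1 and -0.92 between Serpinf1 and S100a10. The pairs named before these then had 0.67, 0.42 and -0.87, in the same order. Other relations turned sign, so the sets did not hold within a genotype. Among them, r of Plat with S100a10 went from -0.82 to 0.75. That of Plat with Plau went from 0.64 to -0.765, and that of Plaur with S100a10 from 0.81 to -0.22. LRP1 eKO replicate 2 had the lowest LRP1 eKO signals of Plau, Plaur, Serpine2 and Serpinf1 and the highest of Plat, S100a10 and Anxa2. Among all genes tested, the patterns most like Plat were those of Ldoc1l and Drd4 (r = 0.988 and 0.985), and that most like Plau was Tmem59 (0.996). Wisp1 and Ahcyl2 were nearest to Plaur (0.993 and 0.985), Mmp13 and Slc36a1 to S100a10 (0.994 and 0.993), and Plec and Fam129a to Anxa2 (0.999 and 0.995). Psmb8 and Ly6e were nearest to Serpine2 (0.982 and 0.970), and Gramd1b and Irf5 to Serpinf1 (0.982 and 0.981). Between 37 and 1019 genes had an r above 0.9 with a given member, so that a high r over 8 libraries is common here.

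To show the regulatory sequence of members that rose together, the 250 bases before the RefSeq start of Plaur (chr7:24462233-24462482, plus strand) and Anxa2 (chr9:69453433-69453682, plus strand) are printed 5′ to 3′ from GRCm38.p6. The motifs searched on both strands were the AP-1 element TGANTCA, the GC box GGGCGG, the TATA box TATAAA and the SMAD element CAGACA, and capitals mark their matches.
Plaur: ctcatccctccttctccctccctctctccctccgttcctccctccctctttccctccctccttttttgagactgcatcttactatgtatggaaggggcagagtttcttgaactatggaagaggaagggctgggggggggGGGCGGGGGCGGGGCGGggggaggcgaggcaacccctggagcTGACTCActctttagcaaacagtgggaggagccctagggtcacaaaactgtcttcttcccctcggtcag
Anxa2: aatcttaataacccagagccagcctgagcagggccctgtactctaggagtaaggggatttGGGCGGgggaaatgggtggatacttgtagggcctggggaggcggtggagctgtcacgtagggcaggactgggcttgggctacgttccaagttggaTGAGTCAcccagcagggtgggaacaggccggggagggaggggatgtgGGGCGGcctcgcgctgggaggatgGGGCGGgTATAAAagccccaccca
Both windows hold 1 AP-1 match, which begins at -69 from the start in Plaur and at -95 in Anxa2, and both hold 3 GC boxes, of which those at -105 and -100 share a base in Plaur. Anxa2 also has a TATA match at -17. The RefSeq start of Anxa2 lies 63 bases inside the gene span given above. Its TATA match and its GC boxes at -48 and -24 are thus within that span. Of 32536 windows of this length before RefSeq starts, 6.73% hold the AP-1 letters, 33.0% the GC box, 12.3% the TATA box and 17.0% the SMAD element. In the same window, Serpine2 had 6 GC boxes and 0 AP-1 matches, and Serpinf1 had 1 SMAD match at -38. The RefSeq starts used for Serpine2 and Serpinf1 lie 2515 and 78 bases inside the gene spans given above. The whole Serpine2 window and the SMAD match of Serpinf1 are therefore within these spans. The sequence tables matched 4 of the 7 genes. These matches describe letters and are not measured sites.

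Of the rest of the plasminogen and fibrinolysis genes, Serpinb2 and Eno1 were higher in LRP1 eKO libraries and fibrinogen chains were lower. The list holds 18 genes, of which 9 passed the filter on low signals. Among those 9, 3 rose, 4 fell and 2 did not pass, with a median log2 fold change of -0.069. Serpinb2, which encodes a mainly intracellular inhibitor of uPA, rose from 3.92 ± 0.689 to 7.73 ± 0.617 (SD, n = 4), or by 0.84 on the log2 scale (adjusted p = 2.5e-04). Eno1, a glycolytic enzyme that also binds plasminogen at the cell surface, rose by 0.46 on the log2 scale (adjusted p = 1.9e-04). Plgrkt, a plasminogen receptor with a lysine end, had 31.8 ± 3.65 and 30.1 ± 0.865 (SD, n = 4; log2 fold change -0.068, adjusted p = 0.47), and Serpini1, the gene of neuroserpin, had a log2 fold change of -0.069 (adjusted p = 0.48).

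The fibrinogen genes Fga, Fgb and Fgg, made mainly by hepatocytes, decreased by 1.501 (Fga), decreased by 1.75 (Fgb) and decreased by 1.87 (Fgg) on the log2 scale (adjusted p = 4.8e-06, 9.7e-06 and 2.8e-06). Kng1, the gene of kininogen, fell by 1.06 (adjusted p = 2.7e-05). The remaining 9 genes of the list had mean signals of at most 1.06 in either group. They were fitted without the filter, and their adjusted p is over all genes of that fit. Among these 9, Plg, the gene of plasminogen itself, had low signals throughout. By replicate, Plg had 0.871, 0.732, 0.686 and 0.601 in WT and 0.0175, 0.0052, 0.0176 and 0.0075 in LRP1 eKO libraries. Its log2 fold change was -0.77 (adjusted p = 2.3e-05), which a pseudocount of 0.1 moved to -2.87. Serpinf2, the gene of the plasmin inhibitor alpha-2-antiplasmin, went from 1.06 ± 0.302 to 0.149 ± 0.0266 (SD, n = 4; log2 fold change -0.83, adjusted p = 6.0e-04). Plg and Serpinf2 were chosen after their values were seen. Of 6 hepatocyte markers, the 3 that passed the filter were all lower, and Fgb itself is among these 3. Of all 6, 1 had a higher mean log2(signal + 1) in LRP1 eKO libraries. The summed signal of the 6, Fgb included, was between 52.5 and 75.1 in WT and between 18.7 and 25.4 in LRP1 eKO libraries. In these bulk libraries fewer cells of a type and less RNA per cell cannot be told apart. The part of hepatocyte RNA in the lower signals of the fibrinogen genes, Kng1, Plg and Serpinf2 was not tested.

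**Figure D3:**
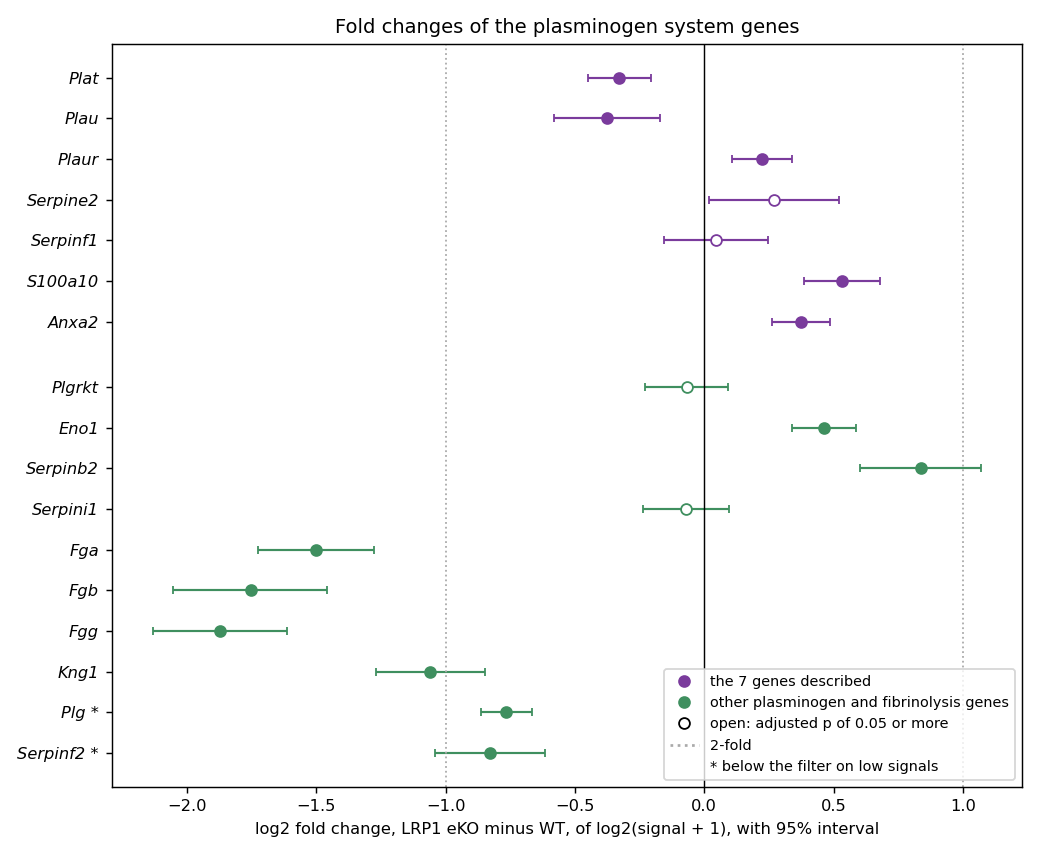
Log2 fold change of LRP1 eKO minus WT (x axis, log2(signal + 1) scale) with its 95% interval for the 7 genes described (purple) and 10 other plasminogen and fibrinolysis genes (green). Serpinb2 has the largest increase in the plot (0.84) and Fgg has the largest decrease (-1.87), while the 7 genes lie between -0.38 and 0.53.

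The families of the co-receptor pair were set beside it. Of 12 genes in a list of annexins with their partner Ahnak, 10 passed the filter, 7 rose and 3 did not pass, with a median log2 fold change of 0.23. Anxa8 had the largest rise of those named, from 32.2 ± 1.38 to 72.7 ± 6.65 (SD, n = 4; log2 fold change 1.15, adjusted p = 1.7e-06). Ahnak, a large scaffold that binds the annexin A2 complex, rose by 0.66, Anxa5 by 0.44, Anxa3 by 0.36 and Anxa1 by 0.30 on the log2 scale (adjusted p = 9.6e-04, 0.0015, 0.0023 and 0.0025). The increase of Anxa2 (0.37) was thus inside the range of its family. In the S100 family 9 of 14 genes passed the filter, 3 rose and 1 fell, with a median of 0.15. S100a4 rose by 0.36 and S100a3 by 0.46 (adjusted p = 0.012 and 0.0075), and S100a1 fell by 0.30 (adjusted p = 0.0054). S100a8, a neutrophil and monocyte gene, rose by 0.66 (adjusted p = 0.041) from a low signal, and its adjusted p was between 0.090 and 0.10 when WT replicate 1, WT replicate 3 or LRP1 eKO replicate 1, 3 or 4 was left out. S100a6 had a log2 fold change of 0.16 (adjusted p = 0.17).

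Of 19 further serpins 12 passed the filter, and 4 rose and 5 fell, with a median log2 fold change of -0.071. Serpinb9b, an intracellular serpin of the mouse, rose from 2.57 ± 0.267 to 16.8 ± 5.26 (SD, n = 4; log2 fold change 2.27, adjusted p = 1.0e-05). The alpha-1-antitrypsin genes Serpina1a and Serpina1b, made by hepatocytes and near-identical to further copies, had log2 fold changes of -2.06 and -1.95 (adjusted p = 2.5e-06 and 2.2e-06), and how reads were divided among such copies is not stated. Serpinb6a rose by 0.34 and the collagen chaperone Serpinh1 by 0.15 (adjusted p = 7.1e-04 and 0.016). The adjusted p of Serpinh1 was 0.056 without LRP1 eKO replicate 3.

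Among endocytic receptors, 13 of 17 passed the filter, 4 rose and 2 fell (Lrp1 is one of these), with a median log2 fold change of 0.14. Vldlr, which also takes up uPA and serpin complexes, rose from 9.13 ± 0.675 to 15.4 ± 1.70 (SD, n = 4; log2 fold change 0.69, adjusted p = 1.6e-04). Lrp8 rose by 0.41 (adjusted p = 0.031), with overlapping groups and an adjusted p between 0.070 and 0.085 when WT replicate 1, WT replicate 4 or LRP1 eKO replicate 2 or 4 was left out. Without WT replicate 1, 3 receptors in all had an adjusted p below 0.05. The chaperone Lrpap1 had a log2 fold change of 0.031 (adjusted p = 0.68). Of 20 genes of the coagulation surface, 9 passed the filter, 4 rose and 2 fell, with a median of 0.049. F3, the gene of tissue factor, rose from 61.4 ± 5.14 to 136.7 ± 6.80 (SD, n = 4; log2 fold change 1.14, adjusted p = 1.5e-06), Thbd, the gene of thrombomodulin, by 0.50 and Tfpi2 by 0.51 (adjusted p = 0.0038 and 0.0019), and Gas6 fell by 0.36 (adjusted p = 2.0e-04). Of 20 genes whose products plasmin or urokinase can act on, 17 passed, 8 rose and 3 fell, with a median of 0.20. Mmp13, a collagenase, rose by 0.86, Vegfa by 0.78 and Pdgfd, which uPA activates, by 0.65, and Pdgfc, which tPA activates, fell by 0.59 (adjusted p = 2.1e-04, 3.5e-05, 5.7e-04 and 4.2e-06). Fibronectin, Fn1, had a log2 fold change of 0.26 (adjusted p = 0.19).

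The labelled cell type was compared with marker lists. Of 10 pan-endothelial markers 7 passed the filter, and none was at 0 in all libraries. Pecam1 and Cdh5 had mean signals of 2.09 ± 0.416 and 1.86 ± 0.430 in WT libraries (SD, n = 4). Of the 7, 2 rose, among them Cdh5 (log2 fold change 0.68, adjusted p = 0.020), with overlapping groups. Pecam1 did not pass (log2 fold change 0.36, adjusted p = 0.11). All 6 mesothelial markers passed the filter, with Msln at 1020 ± 125 and 1305 ± 51.0 (SD, n = 4) in WT and LRP1 eKO libraries, and markers of stellate cells and fibroblasts summed to between 1757 and 2313. Signals of endothelial and of other cells cannot be separated in these libraries, so the values of the 7 genes belong to the whole preparation. All 5 smooth muscle markers rose, with sums from 1462 to 1521 in WT and from 1809 to 1891 in LRP1 eKO libraries. Sums of mesothelial markers were higher in every LRP1 eKO library (2035 to 2221, against 1608 to 1987 in WT), with Msln as their highest marker. Of these 6 markers, 3 had a higher mean log2(signal + 1) in LRP1 eKO libraries. The mean over their list overlapped between the groups (7.33 to 7.51 in WT, 7.475 to 7.53 in LRP1 eKO libraries). Sums of pan-endothelial markers were higher in every LRP1 eKO library too (41.9 to 63.6, against 33.9 to 38.7 in WT), with Eng as their highest marker. The mean log2(signal + 1) over their list overlapped, with LRP1 eKO replicate 2 at 1.78 and WT libraries between 1.64 and 1.85. Of 13 macrophage and Kupffer cell markers, 9 passed the filter and 1 rose, and their sum was between 113.3 and 222.6 in WT libraries, 52.8 in LRP1 eKO replicate 2 and at least 394.4 in the other LRP1 eKO libraries. All 7 genes were at an extreme of their genotype in LRP1 eKO replicate 2. Plau, Plaur, Serpine2 and Serpinf1 were lowest there, and Plat, S100a10 and Anxa2 were highest. Skeletal muscle markers fell (3 of 3 that passed the filter), from sums of 20.8 to 37.3 to sums of 3.44 to 4.14. Stellate cell and fibroblast markers had 2 lower and 0 higher of 7, and mesothelial markers 1 lower and 1 higher of 6. Liver sinusoidal markers had 1 higher of 4, from sums of 7.84 to 11.7 to sums of 8.38 to 33.0. Of neutrophil markers 1 passed the filter and rose (S100a8), of lymphocyte markers 0 and of megakaryocyte markers 2 passed, and of erythroid markers 1 passed and fell. Ly6g, Retnlg, Cd3g, Cd79b, Gp9 and Ppbp were at 0 in all libraries. The part of other cell types in the changes of the 7 genes was not tested.

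**Figure D4:**
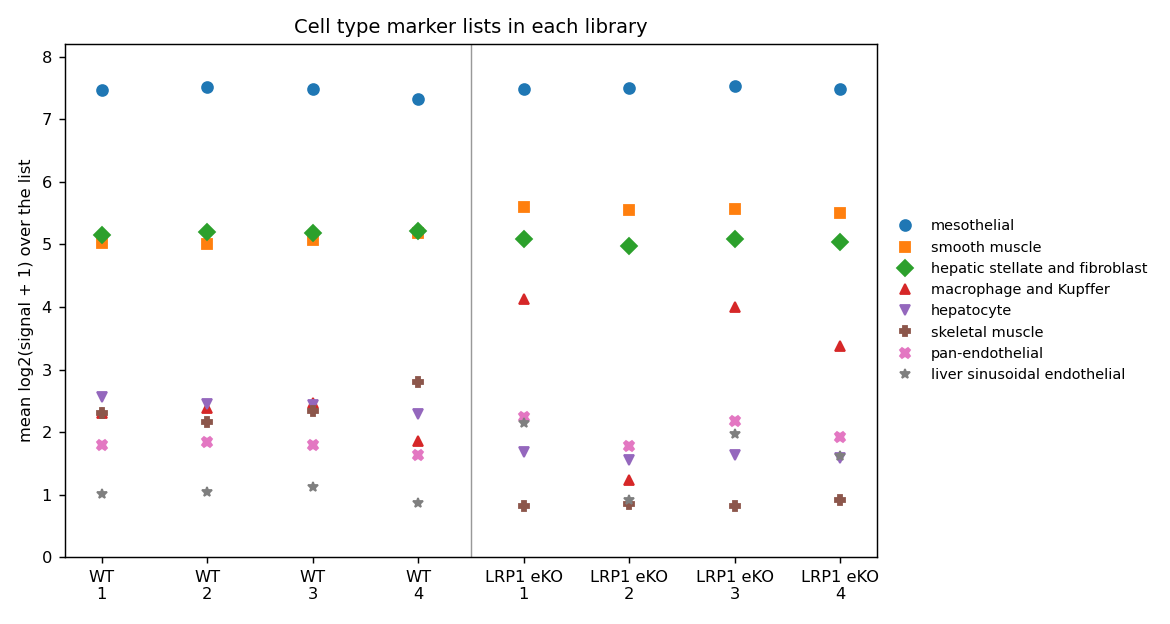
Mean log2(signal + 1) over each of 8 marker lists (y axis) in every library (x axis, 4 WT and 4 LRP1 eKO). The macrophage list is lowest in LRP1 eKO replicate 2 (1.24) and between 3.38 and 4.13 in the other LRP1 eKO libraries, and smooth muscle markers are higher in all 4 LRP1 eKO libraries.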

How the data were processed

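Liver EC libraries, 4 WT and 4 LRP1 eKO, were assigned to genotype and replicate by the sample labels. The deposited values are a signal that the authors quantile-normalized, given per protein-coding gene and library, and no library was left out. The submitters' processing notes name TopHat2, Cufflinks and mm10, while the paper's methods name STAR, featureCounts and edgeR, and which of them made this table is not stated. Quantile normalization removes global shifts between libraries, and the depth is unknown, so no counting error was computed. As these are not counts, the count test of the paper's methods was replaced by limma 3.58.1 in R 4.3.3 on log2(signal + 1), fitting genotype alone with the trend option. The filter kept genes that reached a signal of 1 in 4 or more libraries. Exact two-sided permutation tests over libraries were used for single genes and for 6 within-library differences, whose adjusted p is over the pairs and whose intervals use the pooled SD. The calculation was tested on simulated data. Genes, lists and tests were chosen with earlier results of these data known. The rule for naming genes took all members, every plasminogen and fibrinolysis gene past the filter, and of each further list the 4 smallest p and the highest mean. Plg, Serpinf2, Pecam1, Cdh5 and the markers at 0 were named outside this rule, and some genes that it takes are not reported here. Gene identifiers missing by symbol were matched by Ensembl identifier, and Acta1 of the muscle list was not matched. Overlaps came from GENCODE M21 on GRCm38 and promoter sequences from RefSeq on GRCm38.p6. Alternatives were other pseudocounts, filters, limma settings and centring, the replicate block and leaving out libraries.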

Additional observations from a re-analysis of the deposited data

Results flagged for a closer look

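Of 106 groups of 4 libraries examined over the named genes and the 6 pairs, 8 held an outlying library by Dixon's ratio (above its 95% critical value), which is its gap to the nearest library divided by the range of the group, where chance gives about 5.3. None of the 7 plasminogen activation genes and none of the 6 pairs was among these 8. WT replicate 4 was lowest for Kng1 (ratio 0.913, signal 3.11 against 4.31 to 4.42), Thbd (0.860, 60.8 against 79.3 to 82.4) and Serpinh1 (0.885, 602.6 against 637.7 to 642.3) and highest for S100a1 (0.980, 478.2 against 405.6 to 407.1). LRP1 eKO replicate 2 was lowest for Serpinb2 (0.853, 6.82 against 7.92 to 8.11) and Lrpap1 (0.850, 73.3 against 81.4 to 82.9). LRP1 eKO replicate 1 was highest for Fga (0.891, 2.41 against 1.68 to 1.76), and LRP1 eKO replicate 3 was highest for Vegfa (0.876, 76.6 against 67.5 to 68.6).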

How the results depend on the processing

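Plat, Plau, Plaur, S100a10 and Anxa2 kept their direction and an adjusted p below 0.05 from limma under all 18 alternatives, with a highest adjusted p of 0.0060, 0.026, 0.024, 0.0016 and 0.0023. Their log2 fold changes ranged from -0.36 to -0.26, -0.43 to -0.28, 0.20 to 0.26, 0.47 to 0.58 and 0.31 to 0.40. Serpine2 (0.27, adjusted p = 0.080) passed with array weights (0.39, adjusted p = 0.0029), without LRP1 eKO replicate 2 (0.37, adjusted p = 0.011) and, an alternative chosen after seeing the data, without WT replicate 4 and LRP1 eKO replicate 2 (0.43, adjusted p = 0.0023), and its adjusted p reached 0.20 under the rest. With 1 library left out, it ranged from 0.20 to 0.37, Serpinf1 from -0.013 (without LRP1 eKO replicate 1) to 0.14 (0.16 without both libraries just named), and the number of members called from 5 to 6. The difference of Plat minus Plau turned to -0.051 without WT replicate 4 and LRP1 eKO replicate 2, and ranged from -0.084 to 0.13 with 1 library left out. With 1 library left out the exact tests of the pairs cannot pass the threshold, and the other 5 pairs kept their direction. The number of all genes past 2-fold (189) was 315 and 66 with pseudocounts of 0.1 and 5, and 164 to 246 with 1 library left out. The plasminogen and fibrinolysis count (7) was 12 with no filter, as more genes were tested, and 4 at a minimum mean signal of 5, where the S100 count (4) was 2, as fewer were tested. The endocytic receptor count (6) ranged from 3 to 6 with 1 library left out. It was 7 with a pseudocount of 5, with array weights, with the replicate block and without WT replicate 4 and LRP1 eKO replicate 2. Plgrkt turned to 0.0077 with array weights and ranged from -0.11 to 0.0067 with 1 library left out, and Serpini1 to 0.0033 with array weights. WT and LRP1 eKO libraries of the same number did not deviate together (r from -0.13 to 0.18, and no library correlated best with its own number). With 4 libraries in a group, this check cannot exclude that libraries of the same number were handled together. With the replicate block, 5 members and 4185 of all genes passed, against 4690 without it, and S100a8 did not (adjusted p = 0.069). The cause of these changes was not tested where the number of genes or libraries does not give it. Depth is unknown, and the 4 libraries of a group limit the precision.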
